A study of Homo sapiens with 12 samples.

Results

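The Human Silencing Hub (HUSH) and its partners were examined as 7 of the 19901 protein-coding genes counted by RNA-Seq in HCT116 KAP1-dTAG cells. The genes are TASOR, MPHOSPH8 and PPHLN1, which encode the HUSH core, TASOR2, which encodes a relative of TASOR, MORC2, and the pair SETDB1 and ATF7IP. They were chosen by gene symbol, from what is known of these complexes, after fold changes between dTAG and DMSO in these same libraries had been seen. The differences between dTAG and DMSO are therefore given as a description, with standard errors (SE) and 95% intervals, and the number of genes called in that contrast is not independent evidence. All 7 genes passed the filter on low counts, with 571 to 4535 reads per gene and library.

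HCT116 is a human colorectal carcinoma line, and in the single clone used (D5) the endogenous KAP1 protein carries a degron, so that the dTAG ligand sends it to the proteasome. KAP1 is encoded by TRIM28. All cells were kept in serum-free medium for 48 h and received either dTAG or the vehicle DMSO 8 h before the serum step. The 4 groups of 3 libraries are called DMSO-S0 and dTAG-S0 where cells stayed serum-free, and DMSO-S30 and dTAG-S30 where serum was added for the last 30 min, so the starvation, the tagged allele and the clone are shared by every group. The design asks how KAP1 depletion alters transcripts before and during the response to serum.

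HUSH silences retroelements and other intron-poor transcribed sequences. TASOR is its scaffold, MPHOSPH8 (MPP8) reads methylated H3K9 through a chromodomain, and PPHLN1 (periphilin) binds RNA. MORC2 is an ATPase that HUSH recruits to compact chromatin. SETDB1 is the H3K9 methyltransferase that works with HUSH and also with KAP1, which brings it to sites bound by KRAB zinc finger proteins, and ATF7IP stabilises SETDB1 in the nucleus. TASOR2 is a paralog of TASOR that can assemble with MPHOSPH8 and PPHLN1 in a related complex.

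The sequence just upstream of the start sites is shown for the 3 genes that were lower with dTAG and, beside them, for SETDB1, the partner of ATF7IP that was not called. Each line holds 200 bases, 5′ to 3′ on the gene's own strand, read from the RefSeq human genome GRCh38.p14. They precede the most upstream start of the gene in the counted annotation or the GENCODE v44 annotation. For MORC2 the start used, 30968774, lies upstream of the counted gene, which ends at 30968298. The windows are chr3:56683266-56683465 on the minus strand for TASOR, chr22:30968775-30968974 on the minus strand for MORC2, chr12:14365432-14365631 on the plus strand for ATF7IP and chr1:150926063-150926262 on the plus strand for SETDB1. Capitals mark every match, on either strand, to the GC box GGGCGG, to CCAAT, or to the E-box CACGTG.
TASOR: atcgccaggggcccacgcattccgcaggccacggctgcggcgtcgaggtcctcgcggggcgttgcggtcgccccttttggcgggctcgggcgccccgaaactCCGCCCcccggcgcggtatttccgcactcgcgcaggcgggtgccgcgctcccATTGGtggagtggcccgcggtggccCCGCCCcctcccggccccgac
MORC2: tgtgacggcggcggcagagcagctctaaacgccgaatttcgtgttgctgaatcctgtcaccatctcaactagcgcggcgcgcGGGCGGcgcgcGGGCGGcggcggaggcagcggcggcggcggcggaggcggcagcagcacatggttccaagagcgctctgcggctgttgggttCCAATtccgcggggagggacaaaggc
ATF7IP: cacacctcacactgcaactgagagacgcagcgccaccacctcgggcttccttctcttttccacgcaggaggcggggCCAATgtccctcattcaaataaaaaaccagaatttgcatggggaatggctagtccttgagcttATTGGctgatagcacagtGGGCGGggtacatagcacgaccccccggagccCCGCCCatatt
SETDB1: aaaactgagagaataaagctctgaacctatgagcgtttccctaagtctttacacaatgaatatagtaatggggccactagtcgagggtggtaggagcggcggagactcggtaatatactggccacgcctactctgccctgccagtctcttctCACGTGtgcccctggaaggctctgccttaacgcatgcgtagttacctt

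The TASOR, MORC2 and ATF7IP windows each held 2 GC boxes, and they held 1, 1 and 2 CCAAT matches. The MPHOSPH8 window, on chromosome 13, held 1 GC box and 2 CCAAT matches, so these letters were also present upstream of a gene that was not called with dTAG. SETDB1 had neither and was the only one of the 5 windows with a CACGTG match. Of the 34943 promoter windows of the same length, which precede RefSeq starts, 40% held GGGCGG, 28.1% CCAAT and 5.48% CACGTG. None of the 5 windows matched the extended ETS sequence CCGGAA, the CRE TGACGTCA or the AP-1 site TGACTCA. These were found in 12.8%, 1.56% and 3.55% of all windows. Nor did any match the sequences used for the NRF1 site and the CArG box of the serum response element, found in 0.964% and 0.0229%. Only exact sequences were searched, so variant forms of these sites, including shorter ETS cores, are not excluded. No motif searched is contained in another. The GC content was 77.5% for TASOR, 69% for MORC2, 63.5% for MPHOSPH8, 56% for ATF7IP and 50.5% for SETDB1, against a median of 59% and quartiles of 47% and 69% over all windows. The windows of PPHLN1 and TASOR2 are not described here.

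The libraries held 20537682 to 26278707 counts, with 7.97% to 9.37% of them from ERCC spike-in RNA. TRIM28 differed by -0.06 (without serum) and -0.04 (with serum) on the log2 scale between dTAG and DMSO, and since dTAG removes the protein and not its RNA, this transcript does not check the labels. The immediate early gene FOS, a subunit of AP-1, rose by 6.48 (log2) with serum in DMSO-treated cells, adjusted p = 1.46e-26 by the edgeR quasi-likelihood test with Benjamini-Hochberg adjustment, and by 6.31 in dTAG-treated cells, adjusted p = 1.78e-26. The epithelial markers EPCAM, CDH1, KRT8, KRT18 and KRT19 lay between 79.5 and 593 normalised CPM (counts scaled to library size) in all 12 libraries. The 9 markers of blood, endothelial, mesenchymal, muscle and glial cells summed to 15.4 to 19.7 CPM without serum and 68.0 to 87.2 CPM with serum, the highest of them being COL1A1 (12.01 to 84.0 CPM), while COL1A2 and GFAP had at most 1 read in a library. The part of COL1A1-expressing cells or of cell numbers in the results was not tested, and in bulk RNA fewer cells of a type and less RNA per cell cannot be told apart.

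Because whole genes were counted, introns included, levels are compared between genes per kilobase (kb) of gene span. In DMSO-S0, SETDB1 stood at 2.51 ± 0.0317 CPM per kb and TASOR2 at 2.45 ± 0.0703 (mean ± SD, n = 3 as in all values of this kind), and their libraries overlapped. TASOR followed at 2.22 ± 0.0313, MPHOSPH8 at 1.85 ± 0.0153, ATF7IP at 1.12 ± 0.0447, MORC2 at 0.928 ± 0.0451 and PPHLN1 at 0.620 ± 0.0184 CPM per kb, with no overlap between neighbours in this order. The span of PPHLN1 is the longest, at 221 kb, which lowers its value on this scale. By the mean over all 12 libraries, on which TASOR2 stands above SETDB1, TASOR2 had more signal per kb than 74.9% of the genes tested, SETDB1 than 74.0%, TASOR than 69.3%, MPHOSPH8 than 67.8%, ATF7IP than 49.5%, MORC2 than 44% and PPHLN1 than 38.0%.

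The order was not the same in every group. In DMSO-S30, TASOR2 lay above SETDB1 without overlap, at 2.39 ± 0.0779 against 2.26 ± 0.0336 CPM per kb, and in dTAG-S0 their libraries overlapped again. TASOR lay above MPHOSPH8 in both DMSO groups and below it in both dTAG groups, with no overlap in any of the 4 groups. The values were 1.85 ± 0.0441 against 1.93 ± 0.0186 CPM per kb in dTAG-S0 and 1.57 ± 0.0694 against 1.79 ± 0.0131 in dTAG-S30. This order holds per kb of span. In raw counts TASOR lay above MPHOSPH8 in all 12 libraries, with ratios of 1.33 or more. MORC2 and PPHLN1 overlapped in dTAG-S0, at 0.642 ± 0.0152 and 0.620 ± 0.0256 CPM per kb, and in no other group.

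Transcripts of TASOR, MORC2 and ATF7IP were lower after KAP1 depletion both without and with serum, whereas the other core subunits MPHOSPH8 and PPHLN1, the paralog TASOR2 and the methyltransferase SETDB1 were not called at either serum level. A gene is called where its adjusted p is under 0.05 in the edgeR quasi-likelihood test, adjusted by Benjamini-Hochberg over the 13093 genes tested. Without serum 3 of the 7 genes were called, all lower, against 0.435% of all genes called lower and 1.28% called in either direction. With serum it was again 3 of 7, against 0.626% called lower and 1.21% called in either direction. Over all genes, 28 (0.214%) were called lower at both serum levels, and these 3 are among them. The genes were chosen with this contrast known, so nothing is read from the shares.

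**Figure D1:**
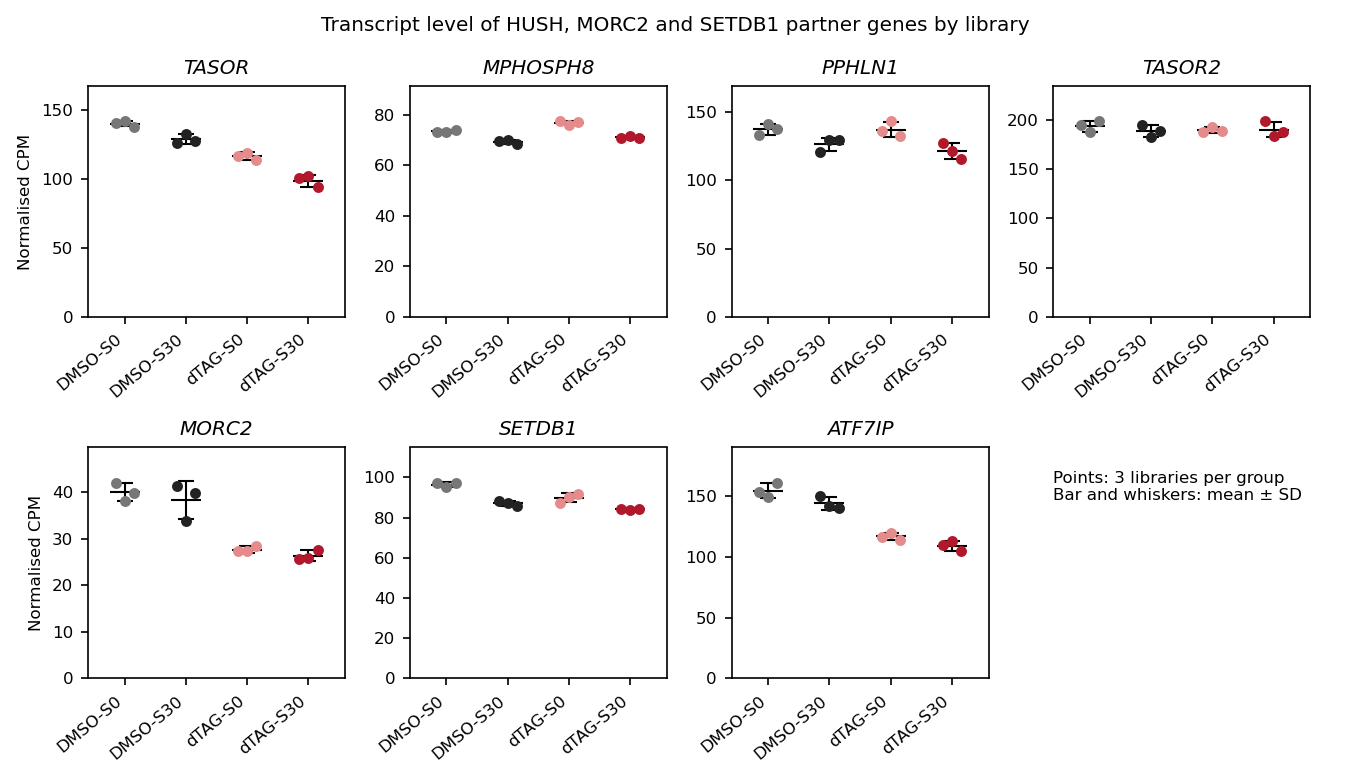
Normalised CPM (y axis, from 0) of the 7 genes in the 4 groups (DMSO grey and black, dTAG pink and red); points are the 3 libraries of a group, the bar is their mean and the whiskers the SD. In MORC2, ATF7IP and TASOR every dTAG library lies below the DMSO libraries at the same serum level, and in TASOR2 and PPHLN1 they overlap.

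TASOR lies on chromosome 3 (hg38, chr3:56620133-56683237, minus strand). Its level was 141, 142 and 138 CPM in the DMSO-S0 libraries (replicates 1 to 3) and 117, 119 and 114 CPM in dTAG-S0. With serum it was 126, 133 and 128 CPM in DMSO-S30 and 101, 102 and 94.0 CPM in dTAG-S30. The groups did not overlap at either serum level, and the dTAG-S30 libraries were the lowest of the 12. The difference between dTAG and DMSO was -0.26 (SE 0.055, log2) without serum, or -16.8% with an interval of -23.1% to -9.98%, and -0.38 (SE 0.056) with serum, or -23.3% with an interval of -29.2% to -16.9%. The difference without serum was no longer called when libraries were scaled by their ERCC reads (-0.23).

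MPHOSPH8 (chr13:19633681-19673459, plus strand), the chromodomain subunit, stood at 73.0, 73.1 and 74.1 CPM in DMSO-S0 and at 77.5, 76.1 and 77.3 CPM in dTAG-S0. In DMSO-S30 it was 69.6, 70.0 and 68.4 CPM and in dTAG-S30 70.8, 71.7 and 70.9 CPM. All dTAG libraries thus lay slightly above their DMSO counterparts, by 0.07 (SE 0.055, log2) without serum and 0.04 (SE 0.056) with serum, and neither difference was called. The intervals, -3.23% to 13.3% and -5.18% to 11.4%, leave out a fall of the size seen in TASOR.

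PPHLN1 (chr12:42238447-42459715, plus strand), the RNA-binding subunit, had 133, 141 and 138 CPM in DMSO-S0 and 136, 143 and 132 CPM in dTAG-S0. The libraries overlapped without serum and with serum, where DMSO-S30 had 121, 129 and 129 CPM and dTAG-S30 127, 121 and 115 CPM. The differences were -0.01 (SE 0.058, log2), with an interval of -8.44% to 7.89%, and -0.05 (SE 0.059), with an interval of -11.1% to 5.07%. TASOR2 (chr10:5684838-5763740, plus strand) overlapped likewise. It ranged from 188 to 199 CPM in DMSO-S0, 187 to 193 in dTAG-S0, 182 to 195 in DMSO-S30 and 184 to 199 in dTAG-S30, with differences of -0.04 (SE 0.055, log2) and 0.02 (SE 0.056).

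MORC2 (chr22:30925130-30968298, minus strand), the ATPase that acts downstream of HUSH, had the largest fold difference of the 7 genes. Its level was 42.1, 38.2 and 39.8 CPM in DMSO-S0 and 27.4, 27.3 and 28.5 CPM in dTAG-S0. With serum it was 41.4, 33.8 and 39.9 CPM in DMSO-S30 and 25.6, 25.9 and 27.7 CPM in dTAG-S30. The highest dTAG library was below the lowest DMSO library, DMSO-S30 replicate 2, which was the lowest of the 6, and without it the difference with serum was -0.65 (log2). It fell by 30.4% without serum (log2 -0.52, SE 0.079, interval -37.9% to -22.1%) and fell by 31.4% with serum (log2 -0.54, SE 0.081, interval -38.9% to -23.0%). MORC2 also had the fewest reads of the 7, at 571 to 844 per library.

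SETDB1 (chr1:150926263-150964744, plus strand) stood at 97.3, 95.03 and 96.9 CPM in DMSO-S0 and at 87.4, 90.2 and 91.7 CPM in dTAG-S0. In DMSO-S30 it was 88.1, 87.4 and 85.6 CPM and in dTAG-S30 84.2, 83.9 and 84.3 CPM. The dTAG libraries lay below the DMSO libraries at both serum levels without overlap, by -0.10 (SE 0.054, log2) and -0.05 (SE 0.055), and neither difference was called. The intervals of -13.6% to 0.752% and -10.9% to 4.36% hold 0, and falls as large as that of ATF7IP lie outside them. Lack of overlap was common in these libraries. It was seen in 5 of the 7 genes in each dTAG comparison, 4 of them lower and MPHOSPH8 higher, against 17.7% of all genes without serum and 15.7% with serum.

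ATF7IP (chr12:14365632-14502935, plus strand), the stabiliser of SETDB1, had 153, 149 and 161 CPM in DMSO-S0 and 116, 120 and 114 CPM in dTAG-S0. With serum the values were 150, 142 and 140.1 CPM in DMSO-S30 and 109.6, 113 and 105 CPM in dTAG-S30. Every dTAG library was below every DMSO library. It fell by 24.7% without serum (log2 -0.41, SE 0.056, interval -30.4% to -18.4%) and fell by 23.6% with serum (log2 -0.39, SE 0.057, interval -29.6% to -17.2%).

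**Figure D2:**
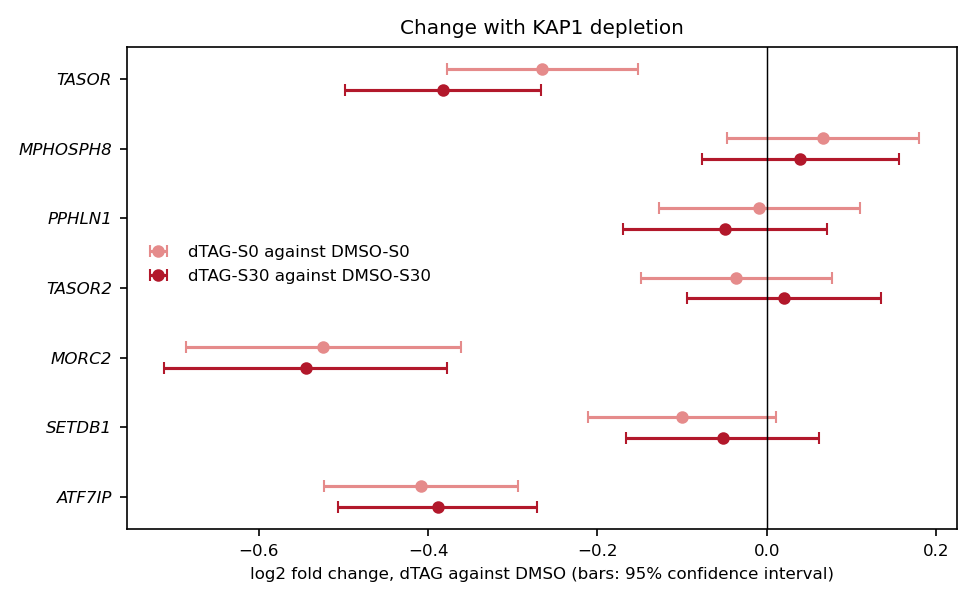
Log2 fold change between dTAG and DMSO (x axis) of the 7 genes without serum (light) and with serum (dark); points are fitted values and bars 95% intervals. MORC2 (-0.52 and -0.54), ATF7IP (-0.41 and -0.39) and TASOR (-0.26 and -0.38) lie left of 0 with their whole intervals, and the intervals of the other 4 genes cross 0.

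The median difference of the 7 genes was -0.10 (log2) without serum and -0.05 with serum, beside -0.01 and -0.00 over all genes, and 6 and then 5 of the 7 were below 0 against 52.3% and 50.2% of all genes. The plot of both comparisons for all genes places MORC2, ATF7IP and TASOR away from the bulk of genes and the other 4 within it. The dTAG comparisons share no library, but they share the clone and the fitted spread.

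**Figure D3:**
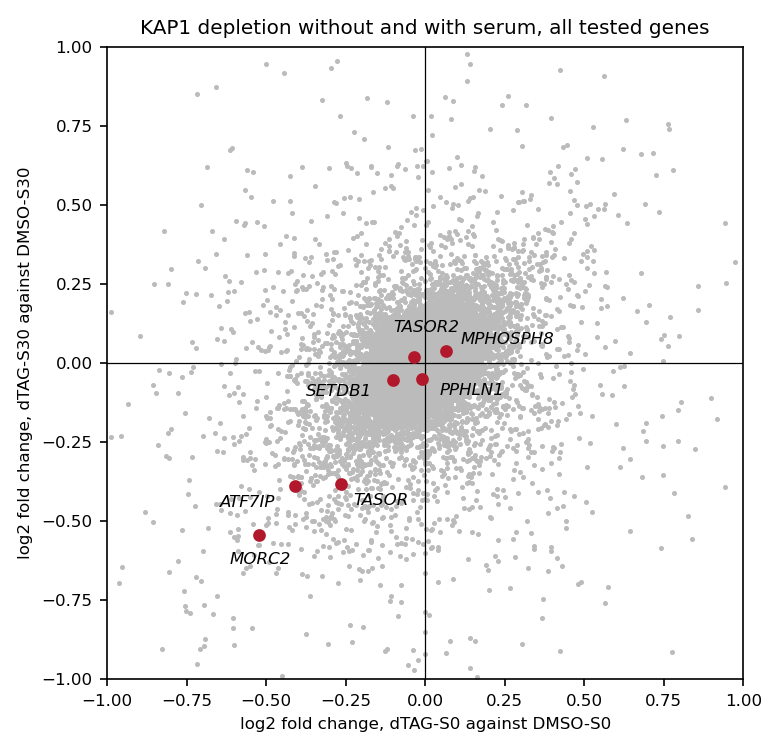
Log2 fold change between dTAG and DMSO without serum (x axis) and with serum (y axis) for the 13093 genes tested (grey) and the 7 genes (red); 60 genes lie outside the range plotted. MORC2, ATF7IP and TASOR lie in the lower left, and MPHOSPH8, PPHLN1, TASOR2 and SETDB1 lie between -0.10 and 0.07 on both axes.

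The stoichiometry of transcripts was followed with ratios of raw read counts within a library, which no scaling of libraries can change. These ratios were added after the values had been seen and are given without a test. The ATF7IP to SETDB1 ratio was 1.597 ± 0.0523 in DMSO-S0 and 1.65 ± 0.0426 in DMSO-S30, against 1.30 ± 0.0502 in dTAG-S0 and 1.29 ± 0.0513 in dTAG-S30. Every dTAG library was below every DMSO library in this ratio.

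Ratios among the core subunits differed where TASOR took part. The TASOR to MPHOSPH8 ratio went from 1.91 ± 0.0416 in DMSO-S0 to 1.52 ± 0.0479 in dTAG-S0, and from 1.86 ± 0.0429 in DMSO-S30 to 1.39 ± 0.0575 in dTAG-S30. The TASOR to PPHLN1 ratio went from 1.02 ± 0.0302 to 0.852 ± 0.0166 without serum and from 1.02 ± 0.0295 to 0.816 ± 0.0251 with serum. In neither ratio did dTAG and DMSO libraries overlap. The ratio of PPHLN1 to MPHOSPH8 changed less, from 1.87 ± 0.0554 to 1.78 ± 0.0898 without serum and from 1.82 ± 0.0804 to 1.71 ± 0.0876 with serum, with overlapping libraries.

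TASOR against its paralog TASOR2 gave 0.726 ± 0.0308 in DMSO-S0 and 0.616 ± 0.0115 in dTAG-S0, and 0.685 ± 0.0411 and 0.522 ± 0.0289 with serum. MORC2 against MPHOSPH8 gave 0.545 ± 0.0277 and 0.360 ± 0.00777 without serum, and 0.554 ± 0.0620 and 0.371 ± 0.0164 with serum. The dTAG libraries were below the DMSO libraries in both ratios without overlap. As read counts over whole genes these ratios also carry gene length, so they compare groups and not the number of molecules of the partners.

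**Figure D4:**
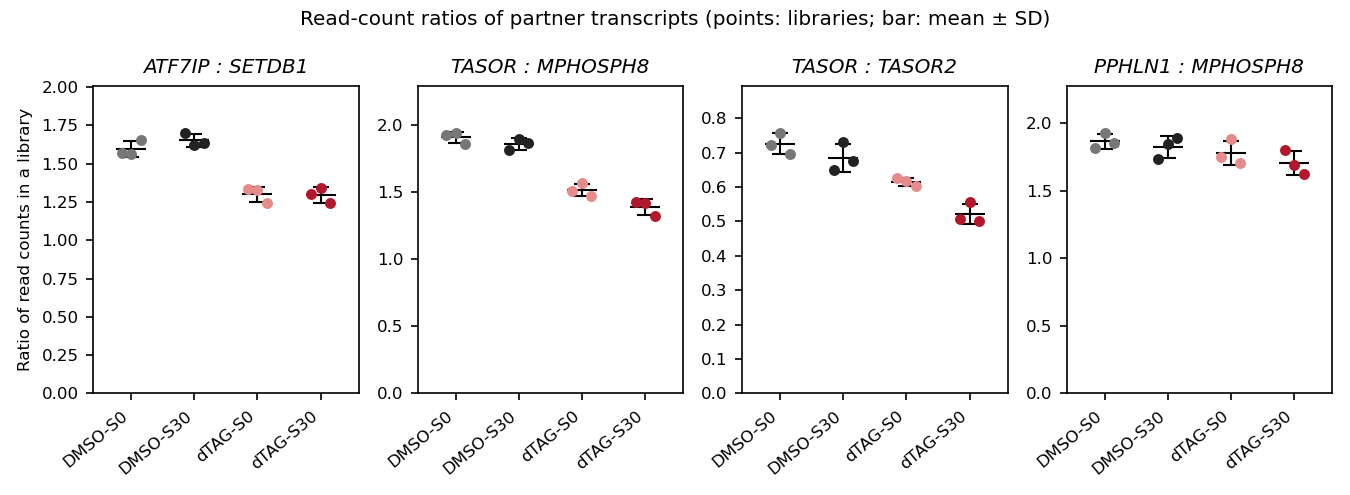
Ratio of raw read counts (y axis, from 0) of ATF7IP to SETDB1, TASOR to MPHOSPH8, TASOR to TASOR2 and PPHLN1 to MPHOSPH8; points are the 3 libraries of each group, the bar their mean and the whiskers the SD. The first 3 ratios are lower in all dTAG libraries, and PPHLN1 to MPHOSPH8 overlaps between dTAG and DMSO.

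Serum for 30 min left most of these genes uncalled. In DMSO-treated cells 0 of the 7 genes were called with 30 min of serum, against 26.1% of all genes called in either direction and 17% called lower, by the edgeR quasi-likelihood test. The unadjusted p was under 0.05 for TASOR, PPHLN1 and SETDB1, and DESeq2 also called 0. PPHLN1 was called without DMSO-S0 replicate 1 (-0.16), and PPHLN1 and SETDB1 were both called without dTAG-S30 replicate 3 (-0.14 and -0.14). All 7 fitted differences were below 0, as were 64.1% of all genes, from -0.14 (SE 0.055, log2, adjusted p = 0.0543 by edgeR) for SETDB1 to -0.05 (SE 0.056, adjusted p = 0.569) for TASOR2, beside a median of -0.07 over all genes and a median of -0.11 over the 7. Libraries with serum lay below those without in TASOR, MPHOSPH8, PPHLN1 and SETDB1 without overlap, which is 4 of 7 against 30.6% of all genes. SETDB1 went from 96.4 ± 1.22 to 87.0 ± 1.29 CPM, MPHOSPH8 from 73.4 ± 0.608 to 69.3 ± 0.840 CPM and ATF7IP, with overlap, from 154 ± 6.13 to 144 ± 5.22 CPM.

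In dTAG-treated cells 2 of the 7 genes were called with serum, both lower, against 15.3% of all genes called lower and 24.3% called in either direction. TASOR fell from 117 ± 2.78 to 99.0 ± 4.38 CPM (log2 -0.24, SE 0.055, adjusted p = 0.00237 by edgeR). PPHLN1 fell from 137 ± 5.67 to 121 ± 5.98 CPM (log2 -0.17, SE 0.057, adjusted p = 0.0327 by edgeR). The other 5 ranged from -0.11 (MPHOSPH8) to 0.01 (TASOR2), beside a median of -0.06 over all genes and -0.10 over the 7. Libraries of 5 of the 7, with ATF7IP as the fifth gene beside the 4 above, lay lower without overlap, against 24.9% of all genes.

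The serum differences depended on the scaling. Of the genes called with serum in DMSO-treated cells 35.03% were higher under upper-quartile scaling and 61.4% under TMM scaling, and in dTAG-treated cells 37.2% and 61.9%. Under TMM the median of all genes was at 0.00 in both, TASOR remained called in dTAG-treated cells (-0.18) and PPHLN1 did not (-0.11). With ERCC scaling neither was called (-0.20 and -0.14). PPHLN1 also lost its call without dTAG-S0 replicate 2 (-0.14) or dTAG-S30 replicate 2 (-0.17). In DMSO-treated cells TASOR2 and MORC2 turned from below to above 0 under TMM, to 0.02 and 0.02, so no direction is given for them.

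**Figure D5:**
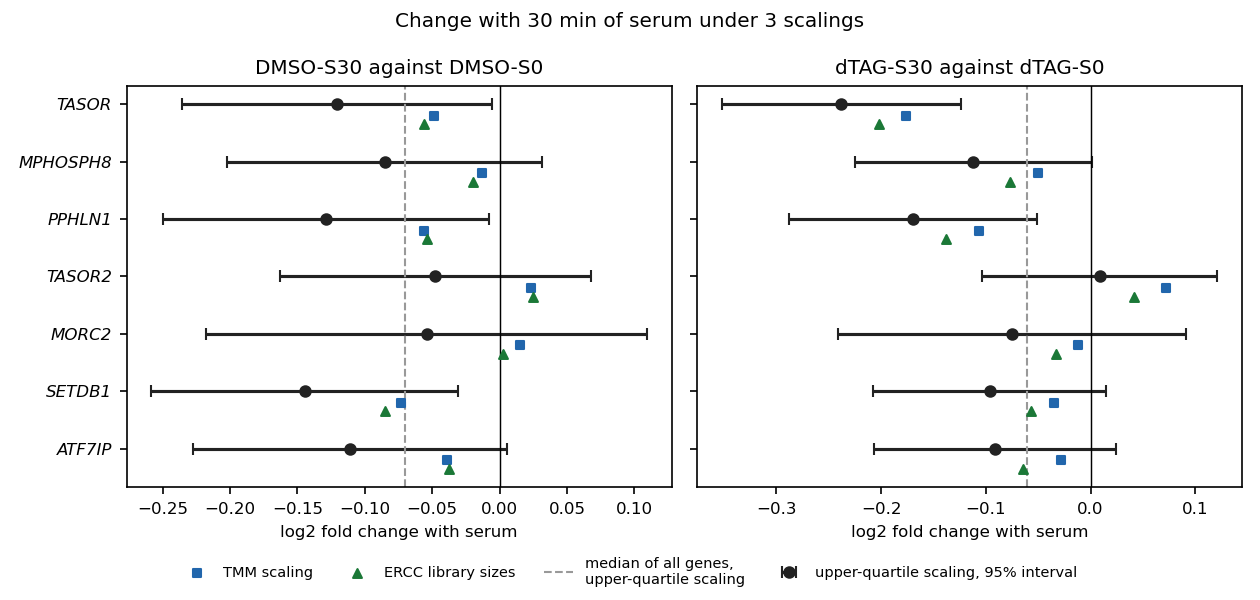
Log2 fold change with 30 min of serum (x axis) of the 7 genes in DMSO-treated (left) and dTAG-treated cells (right) under upper-quartile scaling with 95% intervals (circles), TMM (squares) and ERCC scaling (triangles); the dashed line is the median of all genes under upper-quartile scaling. TMM and ERCC values lie to the right of the circles in both panels, and TASOR in dTAG-treated cells is farthest left at -0.24.

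Whether serum acted differently once KAP1 was depleted was tested with the interaction, the serum effect in dTAG minus that in DMSO. By edgeR 0 of the 7 genes were called, against 0.0382% of all genes, none had an unadjusted p under 0.05, and DESeq2 called 0. TASOR had the largest difference, -0.12 (SE 0.081, log2) with a 95% interval of -0.28 to 0.05, and an adjusted p of 0.9998 by edgeR. So the fall of TASOR with serum in dTAG-treated cells was not shown to differ from its value of -0.12 in DMSO-treated cells. For ATF7IP the interval was -0.15 to 0.19 and for MORC2 -0.26 to 0.22, which does not show that the effect of dTAG on them is equal with and without serum.

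Other silencing genes, on lists drawn up with earlier results known, were set beside the 7. Values of the list genes were taken under upper-quartile scaling alone. Among 20 genes of H3K9 methylation and silencing, which include TRIM28, 0 were called with dTAG at either serum level. Over all genes 1.28% were called without serum and 1.21% with serum, so nothing is read from 0 calls in lists this short. Differences of the 20 genes ran from -0.11 to 0.12 (log2) without serum and -0.16 to 0.16 with serum. Their medians were -0.03 and 0.01. With serum 2 of the 20 were called in DMSO-treated cells, TRIM28 at 0.25 (adjusted p = 0.0075 by edgeR) and ZNF644, a zinc finger partner of the H3K9 methyltransferases G9a and GLP, at 0.22 (adjusted p = 0.00912 by edgeR), both higher, against 26.1% of all genes. In dTAG-treated cells 4 of the 20 were called against 24.3% of all genes, TRIM28, ZNF644 and DNMT1, the maintenance DNA methyltransferase (0.18), higher and ZNF638 (-0.16) lower.

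Paralogs of ATF7IP, SETDB1 and MORC2 were not called with dTAG, against 1.28% of all genes without serum and 1.21% with serum. The list held no gene for TASOR, MPHOSPH8, PPHLN1 or TASOR2. Of 5 paralogs 4 were tested, MORC1 being left out by the count filter, and their differences lay between -0.11 and 0.07 (log2) without serum and between -0.12 and 0.15 with serum. Serum lowered ATF7IP2, the paralog of ATF7IP, by -0.47 (adjusted p = 0.000332 by edgeR) and SETDB2, a relative of SETDB1, by -0.39 (adjusted p = 0.000336 by edgeR) in DMSO-treated cells. That was 2 of the 4 tested, against 17% of all genes called lower. In dTAG-treated cells both were called again, at -0.25 and -0.27, against 15.3% of all genes called lower. ATF7IP itself was not called with serum in either treatment.

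The NEXT and PAXT adaptors, which hand nuclear RNA to the exosome and act beside HUSH on some transcripts, had 0 of 4 tested genes called with dTAG. Over all genes 1.28% were called without serum and 1.21% with serum. Differences of the 4 genes lay between -0.06 and 0.06 (log2) without serum and -0.10 and 0.07 with serum. With serum 3 of the 4 were called lower in DMSO-treated cells, led by ZCCHC8 (-0.26) and ZFC3H1 (-0.23), against 17% of all genes. In dTAG-treated cells 2 of the 4 were called lower, against 15.3%. These calls rest on upper-quartile scaling, the only one examined for the lists. The fourth gene, PABPN1, stood at 0.17 and 0.00 and was not called. RBM7, the fifth, had 1 to 9 reads in a library, and 95.4% of its span is covered on the same strand by another counted gene. Of 9 H3K9 demethylases 8 were tested and 0 were called with dTAG, against the same 1.28% and 1.21% of all genes. The lowest value without serum was that of KDM7A, at -0.19, with 115 CPM in DMSO-S0 and 101 CPM in dTAG-S0. With serum KDM7A was at -0.18. Its intervals, -19.3% to -4.84% without serum and -18.6% to -4.20% with serum, left out 0. KDM7A rose with serum by 0.48 in DMSO-treated and 0.49 in dTAG-treated cells, and KDM4D fell by 0.77 and 0.53. The group means of KDM4D were low, from 4.27 CPM in DMSO-S30 to 7.06 CPM in DMSO-S0. KDM4A had 0 reads in all 12 libraries and is covered in full by another counted gene on the same strand, so its 0 is not read as absence.

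Overlapping genes could alter the counts of the 7, since the handling of strand in counting is not given in the sources used here. MORC2, ATF7IP, MPHOSPH8 and TASOR2 overlapped no other gene of the table, which holds protein-coding genes. In GENCODE v44, an annotation that may differ from that of the authors, the antisense RNA MORC2-AS1 covers 17% of MORC2 and a long noncoding RNA on the opposite strand covers 40.4% of TASOR2, and the part of their reads in these counts was not tested. TASOR shares 1686 bp (2.67% of its span) with CCDC66 on the opposite strand, SETDB1 shares 4162 bp (10.8%) with CERS2, and PPHLN1 shares 14041 bp (6.35%) with ZCRB1 and 2959 bp (1.34%) with PRICKLE1. CCDC66 differed by -0.06 and 0.01 (log2) between dTAG and DMSO and was not called, whereas with serum it was lower by -0.29 (adjusted p = 0.00102 by edgeR) and -0.22 (adjusted p = 0.00837 by edgeR), in the same direction as TASOR. PPHLN1, called lower with serum in dTAG-treated cells, has partners that were also below 0 there without overlap, ZCRB1 at -0.16 and PRICKLE1 at -0.32 (adjusted p = 0.0782 and 0.0600 by edgeR), neither called. The part of these genes in the TASOR and PPHLN1 counts was not tested.

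Across the 12 libraries the pairs of the 7 genes with the highest Pearson r on log2 CPM were MORC2 and ATF7IP (0.94), TASOR and ATF7IP (0.93) and TASOR and MORC2 (0.83), while by Spearman's rho TASOR and ATF7IP came first (0.92 against 0.81 for MORC2 and ATF7IP). MPHOSPH8 had r = -0.35 with MORC2 and -0.22 with ATF7IP, and TASOR with MPHOSPH8 had 0.04. The 12 points are 4 groups of 3 and share the group differences above, so these values describe the same pattern again. Over all genes tested, TASOR was most like FIGNL2 (r = 0.95) and DDB2 (0.95), which recognises UV-damaged DNA, MORC2 was most like CDK12 (0.99), a kinase of the RNA polymerase II tail, and ZNF462 (0.96), and ATF7IP was most like MGA (0.97), a MAX-binding transcription factor, and SMAD9 (0.96), a BMP signal transducer. The differences between dTAG and DMSO in CDK12 were -0.26 (log2) without serum and -0.23 with serum, and in MGA -0.31 and -0.33. CDK12 and MGA were picked for their likeness to MORC2 and ATF7IP, so these differences follow from the choice.

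The genes most like the other 4 followed different patterns. MPHOSPH8 was most like SLF2 (r = 0.96) and ORAI3 (0.96), PPHLN1 like SESTD1 (0.99), SETDB1 like CHD9NB (0.96) and SLC35E2A (0.96), and TASOR2 like SLC5A11 (0.91) and NCOA1 (0.86). SLF2 differed by 0.11 (log2) with dTAG without serum and by -0.29 with serum in DMSO-treated cells, and SESTD1 by -0.02 and -0.21.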

How the data were processed

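RNA-Seq of 12 libraries (4 groups of 3) was used. Per the submitters' processing notes and the methods, the authors trimmed reads with Trim Galore 0.6.4, mapped them to hg38 with STAR and counted whole protein-coding genes with featureCounts (Subread 1.6.3). The deposited values are unnormalized read counts for genes and ERCC transcripts. Handling of strand and multimapped reads is not given in the sources used here. Counts cannot separate duplicate reads from molecules.

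The 13093 genes that reached 10 counts in 6 or more libraries were scaled by the upper quartile, with 1 RUVg factor from the ERCC transcripts, and fitted together in edgeR 4.0.16 (R 4.3.3) with the two-sided quasi-likelihood F-test and Benjamini-Hochberg adjustment over all genes. CPM used the scaled library sizes, except for the cell type markers, and log2 CPM a prior count of 2. Replicates are described as biological, and p-values measure the spread between these libraries. Fits were tested on simulated data. Alternatives were TMM, ERCC library sizes, no RUVg factor or 2, the likelihood ratio test, DESeq2 1.42.0, no count filter, a replicate block, the 6 libraries compared, and each library left out.

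The genes and lists were chosen with earlier results of these data known. Named genes were the 7, TRIM28, FOS, up to 2 genes of each list with the smallest p past the threshold, genes overlapping the 7, and the 2 genes most correlated with each, of which 1 is not reported here. KDM4A, RBM7, MORC1, PABPN1, DNMT1, ZNF638, MORC2-AS1 and KDM7A with dTAG were named after their values were seen.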

Additional observations from a re-analysis of the deposited data

How the results depend on the processing

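With dTAG, the calls of MORC2 and ATF7IP at both serum levels and of TASOR with serum held in 9 alternatives and 12 fits without 1 library each. Over these, MORC2 lay between -0.65 and -0.49 (log2), ATF7IP between -0.43 and -0.36 and TASOR with serum between -0.41 and -0.35. TASOR without serum lost its call only with ERCC library sizes (-0.23). The number of the 7 genes called with serum in DMSO-treated cells, 0, became 1 with only the 6 libraries compared (PPHLN1) and 1 with no RUVg factor (SETDB1), and was 0 to 2 without 1 library each (PPHLN1 without DMSO-S0 replicate 1; PPHLN1 and SETDB1 without dTAG-S30 replicate 3). With serum in dTAG-treated cells, 2 became 1 with DESeq2, 1 with TMM and 0 with ERCC library sizes, and was 1 to 2 without 1 library each. The causes were not tested.

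Libraries with the same replicate number shared little of their deviation from the group means (correlations of deviations -0.153 to 0.0986, 0 of 12 over 0.1). With 3 libraries per group this does not show whether they were prepared in pairs. With the replicate number as a block 0 and 2 genes were called with serum, 3 and 3 with dTAG and 0 in the interaction, and the count over all genes went from 168 to 173 without serum and from 159 to 166 with serum. Over all genes the dTAG calls without serum were 76 with ERCC library sizes, 283 with the likelihood ratio test, 275 without a count filter and 269 with 6 libraries, and with serum 66, 266, 406 and 317. Without 1 library each they were 111 (dTAG-S0 replicate 3) to 299 (dTAG-S30 replicate 3) without serum and 95 (DMSO-S30 replicate 2) to 258 (DMSO-S0 replicate 1) with serum. Serum calls over all genes, 3420 in DMSO and 3184 in dTAG, were 1766 and 1646 with ERCC library sizes, and interaction calls, 5, were 3 with ERCC library sizes and 29 without a count filter.

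Some values near 0 changed sign, none of them called. The interaction of ATF7IP (0.020) became -0.027 with ERCC library sizes, -0.0088 with no count filter, -0.0011 with no RUVg factor and -0.020 to 0.039 without 1 library each, and that of MORC2 (-0.021) 0.0078 with no count filter and -0.142 to 0.040. Serum in DMSO gave MORC2 0.0085 with DESeq2, 0.0025 with ERCC library sizes, 0.015 with TMM and -0.107 to 0.059 without 1 library each, and TASOR2 0.015, 0.025 and 0.024 with the same 3 settings. TASOR2 with serum in dTAG became -0.021 with 2 RUVg factors and -0.028 to 0.027 without 1 library each, and with dTAG in serum it was -0.018 to 0.046. PPHLN1 with dTAG without serum became 0.0093 with 2 RUVg factors, 0.030 with ERCC library sizes, 0.018 with no count filter and -0.042 to 0.023 without 1 library each.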
